A study of Mus musculus with 2 samples.

Results

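The cells described here were excitatory neurons of the mouse cerebral cortex in which RNA of both *Fezf2* and *Bcl11b* was found. A barcode was a member when it held at least 1 *Fezf2* and 2 *Bcl11b* unique molecular identifiers (UMIs, each standing for 1 captured RNA molecule) and at least 1 UMI of *Slc17a7*, the vesicular glutamate transporter of excitatory cells. At most 1 UMI of the GABA-synthesis genes *Gad1* and *Gad2* together was allowed, and at most 4 of *Hs3st4*, a layer 6 marker. Barcodes with 3 or more *Tshz2* UMIs together with *Vwc2l*, a pair that marks near-projecting neurons, were left out. The rule found 82 cells among 17653 kept barcodes, 42 of 9540 in the control library and 40 of 8113 in the white matter injury (WMI) library.

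FEZF2 is a zinc-finger transcription factor that directs deep-layer cortical progenitors and neurons toward a subcerebral fate, and BCL11B (also called CTIP2) acts downstream of it in the outgrowth of their axons. Neurons with high levels of both are the extratelencephalic cells of layer 5, which send axons to the brainstem and the spinal cord and include the corticospinal motor neurons. They have thick apical dendrites, and their long axons cross the white matter.

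The study asked how a preterm type of white matter injury changes the cells of the cortex, with its attention on oligodendrocytes and endothelin. Cortex of C57BL/6 mice was profiled by droplet-based single-cell RNA sequencing, with 1 control and 1 WMI library analysed here. In the sample labels, WMI mice had the right common carotid artery tied at postnatal day 7 with 60 min of hypoxia, tissue was taken at day 14 (2 weeks of age), and nuclei were loaded. In the study's methods, surgery was at day 3 with 90 min of 6% oxygen, tissue was taken at day 10 from trypsin-dissociated cells, and 4 replicates per group are stated. Control tissue was the cortex of the same side in a control group according to the labels, and the uninjured side according to the study's results. Which account holds for these libraries was not tested, and a library may pool several mice. The control library held 10288 barcodes and 66470806 UMIs, with a median of 4727.5 UMIs over kept barcodes. The WMI library held 8354 barcodes and 60568639 UMIs, with a median of 5267. Of the 36 barcode sequences found in both libraries, none belonged to a member.

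With 1 library per group, no difference between control and WMI has a replicate check and no test was made. Levels are UMIs summed over cells, per 1000000 UMIs of those cells (CPM), and all intervals are 95% and cover counting error only. A gene is called higher or lower when its CPM differed at least 2-fold. The members were chosen from the same counts, so their levels against other neurons are a description.

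Members were rare and were found mainly among deeply sequenced cells. They made up 0.44% of kept control barcodes (exact binomial interval 0.318 to 0.595%) and 0.493% of WMI barcodes (0.353 to 0.671%), a difference of 0.0528 percentage points (-0.156 to 0.269). Among excitatory barcodes, which hold *Slc17a7* and at most 1 *Gad1* or *Gad2* UMI, the shares were 0.68% of 6180 in control and 0.822% of 4866 in WMI. Their difference was 0.142 points (-0.191 to 0.494), and both intervals included 0. Members had a median of 15637.5 UMIs in control (range 5747 to 39438) and 12807.5 in WMI (3234 to 32643), above the medians of all kept barcodes. Of control excitatory barcodes with 1000 to 4000 UMIs, 0 of 2422 were members, against 20 of 584 (3.43%) with 16000 or more. The count of 0 allows a share of up to 0.124% by a limit of 3 cells of that total, and of up to 0.152% by the exact interval. The WMI library gave 3 of 1442 and 17 of 665 (2.56%) in the same bins. When each barcode was thinned to 4000 UMIs, 4 control and 11 WMI barcodes still met the rule, 0.0759% and 0.218% of those deep enough. Membership thus depended on the depth of a cell.

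The genes of the rule describe how close the members lie to its limits. *Fezf2* (chr14:12342094-12348189, minus strand, GRCm38) gave 57 UMIs over the 42 control members, and 29 of these held just 1. In the 40 WMI members *Fezf2* gave 52 UMIs, and 31 held 1. *Bcl11b* (chr12:107910403-108003602, minus strand) ranged from 2 to 19 UMIs with a median of 4 in control, and from 2 to 18 with a median of 4.5 in WMI. Members with 2 *Bcl11b* UMIs summed to 1126 CPM over 14 extratelencephalic marker genes that the rule did not use (n = 9, control), against 705.1 CPM in barcodes that met the rest of the rule with 1 *Bcl11b* UMI (n = 27). In WMI these values were 1374 (n = 8) and 616.5 (n = 28). Barcodes that met all but the *Fezf2* limit were more frequent than the members, 133 in control and 226 in WMI, and held 1077 and 827.1 CPM of the 14 genes, against 1432 and 1339 in members with 1 *Fezf2* UMI. *Hs3st4* left out 1 control and 5 WMI barcodes with 5 UMIs, at 1795 and 1714 CPM, and the near-projecting pair left out 5 and 11, at 1109 and 1413 CPM.

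Free RNA in the droplets was gauged in microglia-like barcodes, which held at least 5 UMIs of 6 microglial genes and no *Slc17a7* (161 in control, 606 in WMI, median depths 3437 and 3422 UMIs). *Bcl11b* stood at 26.7 and 37.2 CPM there, against 311.2 and 356 CPM in the members. *Fezf2* stood at 14.1 and 9.1 CPM, against 80.3 and 88.2 CPM. The members' levels of both genes were set in part by the rule, which requires them in every member, and are given as a description. The microglia-like barcodes were shallower than the members, whose median depths were 15637.5 and 12807.5 UMIs. The same amount of free RNA would weigh more in the CPM of microglia-like barcodes, here and in the comparisons below.

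The name given to the cells was checked with an extratelencephalic list of 16 genes, of which *Fezf2* and *Bcl11b* chose the members and were left out here. Summed over the other 14, the members held 1498 CPM (1410 to 1591) in control and 1439 CPM (1344 to 1540) in WMI. Layer 6 corticothalamic-like barcodes, the excitatory barcodes with 5 or more *Hs3st4* UMIs (1427 and 943), held 592.1 and 757.7 CPM. Near-projecting-like barcodes (390 and 349) held 728.3 and 901.5 CPM. *Cux2* upper-layer-like barcodes, with 2 or more *Cux2* UMIs and no *Fezf2* or *Bcl11b* (828 and 610), held 477.7 and 525.1 CPM. Of the 14 genes, those with 200 or more UMIs over the members and the class beside them could be counted. Against the corticothalamic-like barcodes, 5 of 7 were higher in control members, while 2.23% of all 8110 such genes were higher and 5.02% lower. In WMI 2 of 6 were higher (*Npr3* and *Vat1l*), while 1.73% of 7151 were higher and 4.67% lower. The median log2 ratio was 2.03 for the list in control, against -0.03 for all genes, and 0.83 against -0.05 in WMI. Against near-projecting-like barcodes, 2 of 4 were higher in control, with a background of 1.97% higher and 4.15% lower genes, and 1 of 3 in WMI, with 1.68% and 3.8%. Against *Cux2* upper-layer-like barcodes, 3 of 4 were higher in control, with a background of 2.39% higher and 5.76% lower. In WMI 3 of 4 were higher and 1 lower (*Npnt*), with 2.59% and 6.09%. A median control member held RNA of 6 of the 14 genes outside the rule (range 1 to 10), and a median WMI member of 4 (0 to 8). Thus 39 of 42 control members and 30 of 40 WMI members held at least 3 of them. The sum over the 14 genes was higher in members than in each of the 3 other classes, and fewer than 3 of the genes were found in 3 control and 10 WMI members. These cells were chosen for holding few of the genes, so their lower sum per UMI restates that choice. It was 570.6 against 1524 CPM in the other control members and 783.7 against 1551 CPM in WMI.

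Single genes of the list differed in how far they set the members apart. *Vat1l*, a widely used marker of large layer 5 neurons, stood at 166.2 CPM in control members against 30.3 in corticothalamic-like, 53 in near-projecting-like and 36.1 in *Cux2* upper-layer-like barcodes. In WMI these levels were 145.8, 45.2, 58.6 and 40.7 CPM. *Npr3*, the clearance receptor for natriuretic peptides, stood at 85.9 against 18 CPM in corticothalamic-like barcodes in control, and at 66.1 against 26.8 in WMI. *Parm1* stood at 121.1 against 29.6 CPM in control, and at 101.7 against 56.9 CPM in WMI. *Ldb2*, a cofactor of LIM-domain transcription factors and the most abundant gene of the list, stood at 835.1 against 425.8 and 964.7 against 546.4 CPM. *Bcl6*, a transcriptional repressor, stood at 67.6 against 10.6 and 40.7 against 9.81 CPM. *Crym*, which encodes a thyroid hormone-binding protein, stood at 67.6 against 26.8 CPM in control, while the WMI levels of 37.3 and 30.6 CPM lay close together. *Chrna6* had 0 UMIs in the members of both libraries, which allows up to 4.23 CPM in control and 5.09 in WMI, and *Nefh* had 5 and 0 UMIs.

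After thinning each cell to 2000 UMIs, *Vat1l* was found in 31% of control and 25% of WMI members (before thinning 69% and 60%). The corresponding shares were 4.06% and 6.79% of corticothalamic-like and 2.6% and 7.44% of microglia-like barcodes, so that the shares of members lay above the free-RNA level in both libraries. *Npr3* was found in 21.4% of control members after thinning but in 1 of 40 WMI members (2.5%, interval 0.0633 to 13.2%), where the microglia-like share was 1.81%. At this depth detection of *Npr3* did not set WMI members apart from microglia-like barcodes. At full depth its summed level was 66.1 CPM (39 UMIs) in WMI members, against 9.86 CPM (6.44 to 14.4) in microglia-like barcodes.

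Genes leading the members against all other excitatory barcodes are shown in the plot of leading genes by class. The 12 leading genes were ranked by the lower of their ratios in the 2 libraries, among genes with 200 or more UMIs in the members. The 11 described here are *Bcl11b*, *Pex5l*, *Htr1f*, *Trpc4*, *Galnt14*, *Robo1*, *Nos1ap*, *Sorcs1*, *Cntn6*, *Ntng1* and *Rab3c*. The place of *Bcl11b* among them was fixed by the rule, which requires it. Of all genes tested in this comparison, 2.45% were higher in control members and 2.36% in WMI members, and 12.1% and 13.9% were lower. *Pex5l* (chr3:32949408-33143247, minus strand), which encodes an auxiliary channel subunit (TRIP8b), stood at 2659 CPM (Poisson interval 2540 to 2781) in control members, against 1113 in corticothalamic-like, 948.3 in near-projecting-like and 693 in *Cux2* upper-layer-like barcodes. In WMI members it stood at 2921 CPM (2785 to 3062), against 1298, 1069 and 685.3. *Pex5l* was thus higher in members than in each of the 3 other classes, by 2.25- to 4.26-fold.

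**Figure D1:**
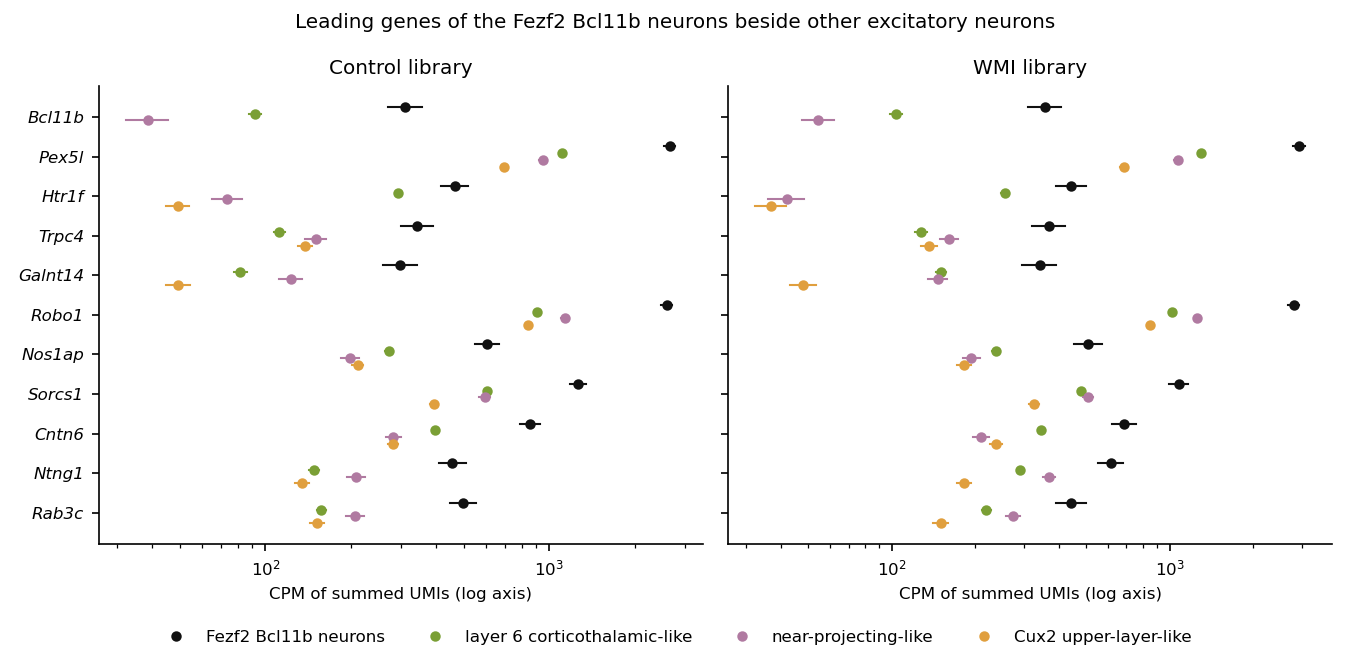
Level of 11 genes leading the members against other excitatory barcodes, in CPM (log10 axis), with the control library on the left and the WMI library on the right. Points are members, corticothalamic-like, near-projecting-like and *Cux2* upper-layer-like barcodes, bars are 95% Poisson intervals (counting error only), and *Bcl11b* has no point in the last class because that class was defined by its absence. In both libraries the members' point lies to the right of the others for each gene.

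*Pex5l* and *Robo1* varied among members, and the 2 libraries overlapped in both. *Pex5l* ranged over control members from 0 to 5064 CPM (median 2635) and over WMI members from 0 to 6949 (median 2538). *Robo1* ranged from 167.9 to 5880 CPM (median 2279) and from 0 to 6126 (median 1932). Both medians lay inside the range of the other library, and 3 WMI members for *Pex5l* and 2 for *Robo1* exceeded the highest control member. The plot of member levels shows this overlap cell by cell. After thinning to 2000 UMIs, *Pex5l* was found in 92.9% and 90% of control and WMI members (97.6% and 97.5% before), against 67.5% and 55.4% of microglia-like barcodes (81.4% and 71% before). For *Robo1* the shares of 92.9% and 92.5% stood against 81.8% and 66.6% of microglia-like barcodes, and the intervals of members and microglia-like barcodes overlapped in control. In WMI these intervals were apart (79.6 to 98.4% against 62.5 to 70.5%). Detection of *Robo1* thus says little in control, and its summed level is the measure used.

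**Figure D2:**
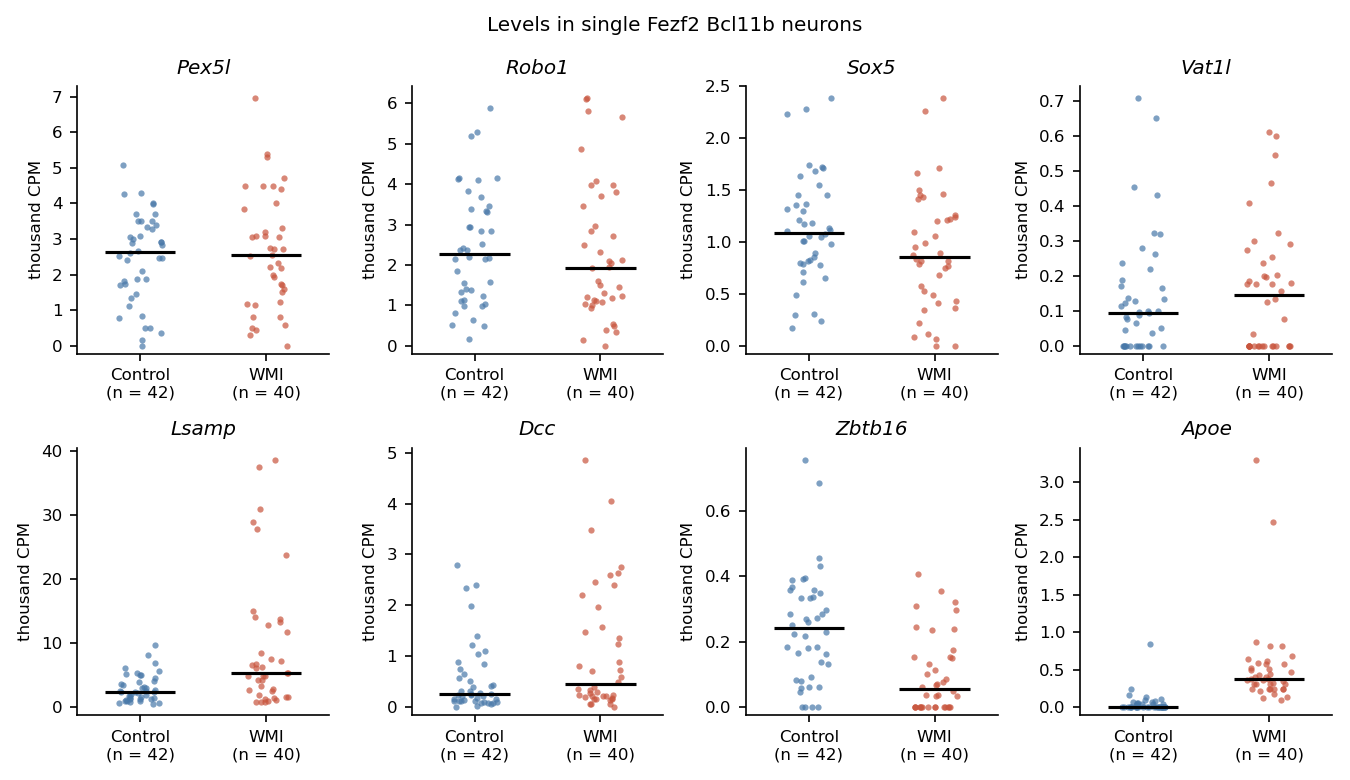
Level of 8 genes in each member, in units of 1000 CPM of that cell (linear axes that differ between panels), with 42 control and 40 WMI cells as points and the median of each library as a line. Median *Pex5l* was 2635 CPM in control and 2538 CPM in WMI, while *Lsamp* reached 38700 CPM in WMI against 9692 in control.

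The other leading genes had varied roles. *Htr1f*, a serotonin receptor, separated the members least from corticothalamic-like barcodes (466.1 against 293.5 CPM in control, 442.5 against 256.4 in WMI) and most from the other classes. Its levels in near-projecting-like barcodes were 73.3 and 41.9 CPM, and in *Cux2* upper-layer-like barcodes 49.1 and 36.8 CPM. *Robo1* (chr16:72308306-73046095, plus strand), a receptor for SLIT guidance proteins, stood at 2593 CPM in control members and 2796 in WMI members, and at 842 to 1259 CPM across the 3 other classes in both libraries. *Trpc4*, a cation channel, stood at 342.2 and 367.9 CPM, against 112.1 and 127.9 in corticothalamic-like barcodes. *Galnt14*, a glycosyltransferase, stood at 298.5 and 340.8 CPM, against 81.5 and 150.6. *Cntn6*, a contactin-family adhesion molecule, stood at 859 and 684.9 CPM against 395.4 and 345.8, and *Ntng1*, a membrane-anchored netrin relative, at 456.3 and 615.4 CPM against 148 and 290.8. *Nos1ap*, *Sorcs1* and *Rab3c* were 2.02- to 3.17-fold above the corticothalamic-like level in both libraries. For *Htr1f* that ratio was 1.59 and 1.73, and for *Cntn6* in WMI it was 1.98, so these did not reach 2-fold.

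A list of 20 genes of the corticospinal program was on balance higher in members than in the corticothalamic-like class. In control members 7 of 15 tested genes were higher (*Cdh22*, *Cdh13*, *Sox5*, *Ntng1*, *Cntn6*, *Diaph3*, *Crym*) and 1 was lower (*Ctnna1*), with a median log2 ratio of 0.97 and a background of 2.23% higher and 5.02% lower genes. In WMI members 3 of 14 were higher (*Cdh22*, *Cdh13*, *Ntng1*) and 1 was lower (*Nr4a2*), with a median of 0.40 and a background of 1.73% and 4.67%. *Sox5*, a transcription factor that sets the timing of deep-layer neuron production, stood at 1194 CPM in control members against 522.4, and at 886.7 CPM in WMI members against 578.7. *Cdh22*, a cadherin, stood at 122.5 against 20.3 CPM in control and at 94.9 against 24.3 in WMI. Whether the libraries differ in these ratios was not tested.

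Ion channels and receptors differed from the corticothalamic-like class in both directions. Of 24 tested genes of potassium and related channels, 2 were higher and 3 lower (*Kcna4*, *Kcnh1*, *Kcnh5*) in control members. In WMI members 3 were higher and 5 lower. *Pex5l* was among the higher genes in both libraries and *Kcnn2* in WMI. The background was 2.23% higher and 5.02% lower genes in control, and 1.73% and 4.67% in WMI. *Kcnn2*, a small-conductance calcium-activated potassium channel, stood at 492.9 against 289.5 CPM in control and 554.4 against 270.7 in WMI. *Kcnh5*, a voltage-gated potassium channel, lay the other way, at 84.5 against 437.6 and 72.9 against 325.9 CPM. *Cacna1h*, a low-voltage-activated calcium channel, stood at 78.9 against 16.9 and 79.7 against 21 CPM. Among 22 glutamate receptor genes *Grik2*, a kainate receptor subunit, was the 1 higher gene in each library (1842 against 702.5 and 2187 against 887.5 CPM). In control 2 were lower (*Grik3* and *Grm3*), and in WMI 5 were lower (*Gria4*, *Grin2d*, *Grik3*, *Grik4* and *Grm3*). The median log2 ratio of the channel list was -0.08 in control and -0.09 in WMI, and of the glutamate receptor list 0.02 and 0.07, all near the medians of all genes.

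Axon guidance genes differed in both directions. Of 30 tested, 3 were higher and 5 lower in control, with a background of 2.23% and 5.02%, and 2 were higher and 4 lower in WMI, with 1.73% and 4.67%. *Robo1* was higher in each library, together with *Slit2* and *Slit3* in control and *Nrp1*, a semaphorin receptor, in WMI. *Unc5d*, a repulsive netrin receptor, was lower in both, at 383 against 1184 CPM in control and 400.1 against 944 in WMI. *Slit1*, *Nrp2* and *Plxnd1* were lower in both as well. *Dcc*, the attractive netrin receptor, stood at 519.6 against 1395 CPM in control and at 991.8 against 1541 in WMI, where it did not reach 2-fold. Over the 30 tested genes the median log2 ratio was 0.08 and 0.06.

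Many markers of other layers were lower in the members than in the corticothalamic-like class. Of the near-projecting list without the rule genes, 0 of 2 tested were lower in either library. Without *Hs3st4*, which defines both classes, 5 of 7 tested genes of the layer 6 corticothalamic list were lower in control (median log2 ratio -1.70) and 4 of 6 in WMI (-2.39), while 5.02% and 4.67% of all genes were lower. Of the upper-layer and layer 4 list, 7 of 10 tested genes were lower in control (median -1.42) and 5 of 11 in WMI (-0.94), and of the layer 5 intratelencephalic list 3 of 5 in each (*Deptor*, *Il1rapl2* and *Hsd11b1*). Against *Cux2* upper-layer-like barcodes, members were higher in 2 of 3 layer 5 intratelencephalic genes in control (*Etv1* and *Sulf2*, median 1.59) and in 1 of 3 in WMI (*Etv1*, median 0.63), with a background of 2.39% and 2.59%. Of the layer 6 list without *Hs3st4*, *Foxp2* in control and *Zfpm2* in WMI were higher in that comparison and 0 genes were lower. *Foxp2* stood at 80.3 against 260.2 CPM in control and 28.8 against 143.4 in WMI, and *Tle4*, a transcriptional co-repressor, at 56.3 against 283.5 and 45.8 against 286.5. *Cux1*, a transcription factor of upper-layer neurons, stood at 78.9 and 50.9 CPM in members, against 377.7 and 350.9 CPM in *Cux2* upper-layer-like barcodes. *Il1rapl2*, from the layer 5 intratelencephalic list, stood at 223.9 and 288.2 CPM in members and at 937 and 1040 CPM in corticothalamic-like barcodes. Its level in *Cux2* upper-layer-like barcodes was 286.6 and 232.6 CPM, near that of the members. *Etv1*, from the same list, stood at 112.7 and 191.6 CPM, close to the corticothalamic-like levels of 95.6 and 142.7.

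*Tshz2* remained in some members because the rule removed it only together with *Vwc2l*. It gave 268 UMIs in control members and 246 in WMI members, of which 221 belonged to 7 control members with 10 or more UMIs each, and 197 to 6 such WMI members. These cells held 1426 CPM of the 14 extratelencephalic genes in control, near the 1498 CPM of all members, and 2009 CPM (1695 to 2366) in WMI, above the 1439 CPM of all members. Their *Robo1* level was 1762 CPM in control and 641.9 in WMI.

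UMIs of other cell types were present in nearly all members. At least 3 UMIs of an astrocyte, oligodendrocyte-lineage, microglial, endothelial or fibroblast list were found in 38 of 42 control and 39 of 40 WMI members. The 7 astrocyte genes summed to 256.3 CPM in control and 266.2 in WMI members, with *Slc1a2* the most abundant. The 9 oligodendrocyte-lineage genes summed to 191.5 and 349.2 CPM, with *Olig1* at 0 in control, and 62 of the 206 WMI UMIs lay in 1 cell. The 9 microglial genes summed to 101.4 and 281.4 CPM, and the corticothalamic-like class showed nearly the same levels, 100.4 and 280.6 CPM. Of the endothelial and mural genes only *Pecam1* was found, with 2 and 5 UMIs, with *Cldn5*, *Flt1*, *Rgs5*, *Pdgfrb* and *Kcnj8* at 0. The fibroblast list gave 5 and 8 UMIs, with *Lum* at 0 in both, *Dcn* in control and *Col1a1* in WMI. Interneuron genes summed to 618.2 and 381.5 CPM, led by *Erbb4*, with *Dlx2* and *Lhx6* at 0 in both. Striatal genes summed to 1335 and 1134 CPM, led by *Pde10a*, with *Drd1*, *Drd2*, *Adora2a* and *Penk* at 0 in control and *Tac1* at 0 in WMI. Hippocampal genes summed to 191.5 and 501.8 CPM (log2 ratio 1.39, 1.09 to 1.69), led by *Zbtb20*, with *Fibcd1* at 0 in both and *Prox1* in control, and to 259.2 and 572.6 CPM in corticothalamic-like barcodes. The part of this RNA in the differences below was not tested.

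The sex-linked genes differed between the libraries. *Xist* (chrX:103460366-103483254, minus strand), the RNA of the inactive X chromosome, had 0 UMIs in the 42 control members and 236 in the WMI members, at least 94.7-fold higher against a floor of 3 UMIs over the control group. It was found in 25 of 40 WMI cells, with a median of 1 UMI over all 40, an upper quartile of 2 and a maximum of 40. Microglia-like barcodes held 892.1 CPM of *Xist* in WMI, above the 400.1 CPM of the members, and 0 UMIs in control. How far free RNA gave the low *Xist* counts was not tested. UMIs of the Y-linked genes *Ddx3y*, *Uty*, *Eif2s3y* and *Kdm5d* were found in all 42 control cells (200 UMIs) and in 35 WMI cells (101 UMIs), 23 of which also held *Xist*. The control members thus held no *Xist* and the WMI members held RNA of both sexes, so that sex and injury cannot be told apart in the comparison that follows.

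Between WMI and control members, few genes were 2-fold apart. Of 998 genes with 200 or more UMIs over the members of both libraries, 18 (1.8%) were higher in WMI and 5 (0.501%) lower, and the median log2 ratio of WMI to control was -0.04. None of the 12 leading genes was among these 23, but ranking them by the lower ratio of the 2 libraries favoured genes alike in both. The level of *Bcl11b* was also set in part by the rule. The log2 ratio was 0.14 for *Pex5l*, 0.11 for *Robo1*, 0.10 for *Trpc4*, 0.19 for *Bcl11b* and -0.08 for *Htr1f*. It was 0.43 for *Ntng1* and -0.33 for *Cntn6*, the values farthest from 0 among the 12. In the corticothalamic-like class 15 of the same 998 genes were higher in WMI and 0 lower, with 7 and 0 in near-projecting-like and 6 and 0 in *Cux2* upper-layer-like barcodes. The plot of WMI against control levels shows most genes along the diagonal.

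**Figure D3:**
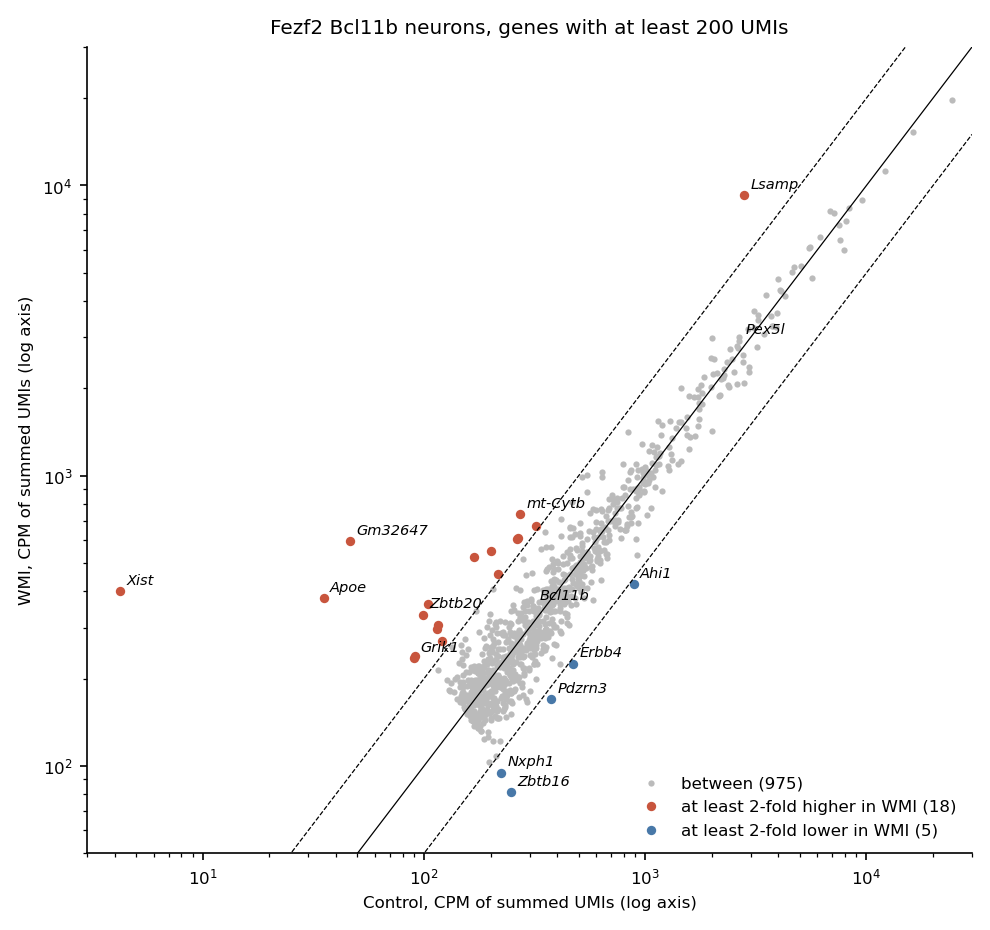
Level of 998 genes in WMI members against control members, in CPM on log10 axes, with dashed lines at 2-fold. Coloured points mark the 18 genes at least 2-fold higher and the 5 at least 2-fold lower in WMI. *Xist*, with 0 control UMIs, is drawn at the floor of 3 UMIs.

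*Apoe*, the lipid carrier made mainly by glia, differed in every class. It gave 25 UMIs in 16 of 42 control members and 224 UMIs in all 40 WMI members, 35.2 against 379.8 CPM, a log2 ratio of 3.43 (2.83 to 4.09). Every WMI member exceeded the median of the control members, which was 0, although the ranges overlapped (0 to 839.3 and 102.3 to 3295 CPM). The ratio was 3.18 in corticothalamic-like, 2.84 in near-projecting-like and 3.30 in *Cux2* upper-layer-like barcodes, and the microglia-like level went from 188.2 to 3971 CPM. Mitochondrial UMIs moved in the same way in each class. They were 0.0927% of UMIs in control members and 0.245% in WMI members (log2 ratio 1.40), with ratios of 1.73, 1.93 and 2.40 in the 3 other classes. *mt-Nd4*, *mt-Nd1*, *mt-Cytb* and *mt-Nd2*, all encoding respiratory chain subunits, were among the 18 higher genes.

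*Lsamp* (chr16:39984361-42181679, plus strand), which encodes an adhesion protein of the IgLON family, carried the most UMIs of the genes that were higher in WMI. It stood at 2797 CPM in control members (1986 UMIs) and 9250 CPM in WMI members (5456 UMIs), a log2 ratio of 1.73 (1.65 to 1.80). The ratio was 0.53 in corticothalamic-like, 0.55 in near-projecting-like and 0.21 in *Cux2* upper-layer-like barcodes, and the difference between classes was not tested. In microglia-like barcodes, the gauge of free RNA, *Lsamp* stood at 4727 CPM in control and 5837 in WMI, above the control members. Over control members *Lsamp* ranged from 535.6 to 9692 CPM (median 2380), and over WMI members from 794.8 to 38700 (median 5335). Of the WMI members 12 lay above the highest control member, and the other 28 lay within the range of the control cells.

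A few cells held much of the *Lsamp* RNA in WMI, although 30 of 40 WMI members also exceeded the control median. In WMI 6 members held 20000 CPM or more, from 23850 to 38700, and these 6 cells held 3167 of the 5456 *Lsamp* UMIs. The next highest WMI member stood at 15070 CPM, and the limit between them was set after the values were seen. In the same 6 cells the 14 extratelencephalic genes summed to 593.6 CPM (453 to 764.1), against 1614 (1504 to 1731) in the other 34 WMI members. This interval lay below the WMI near-projecting-like level of 901.5 CPM and took in the corticothalamic-like level of 757.7 CPM, so the marker check did not set these 6 cells above the other deep-layer classes, and 4 of them held fewer than 3 of the genes. *Pex5l* stood at 1187 against 3280 CPM, *Robo1* at 1286 against 3108 and *Sox5* at 237.5 against 1021. *Dcc* stood at 3107 against 554.5 CPM, and the lincRNA gene *Gm32647* at 2721 against 155.5. The cells rich in *Lsamp* thus held less *Pex5l* and *Robo1* than the other WMI members, as the plot of *Lsamp* against *Pex5l* shows for the first. Barcodes with 20000 CPM or more of *Lsamp* were also found among other excitatory barcodes, 88 of 6138 (1.43%) in control and 235 of 4826 (4.87%) in WMI. Without these 6 cells *Lsamp* stood at 4683 CPM in WMI members, against 2797 CPM in control, a difference below 2-fold. The 6 cells were chosen for high *Lsamp* and lay in WMI alone, so a smaller difference was fixed by the choice. The log2 ratio was 1.65 with equal weight of each member and 1.46 without the top cell. With at least 2 *Fezf2* and 3 *Bcl11b* UMIs it was 1.08.

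**Figure D4:**
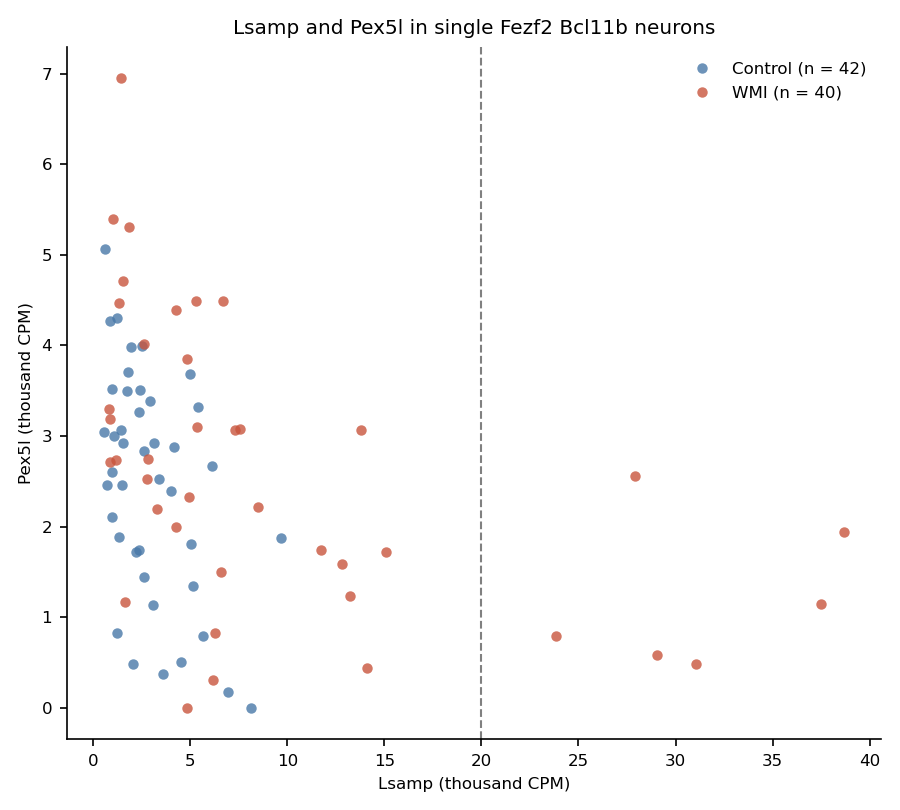
*Lsamp* against *Pex5l* in each of the 42 control and 40 WMI members, in CPM of the cell. The 6 WMI cells above 20000 CPM of *Lsamp* summed to 1187 CPM of *Pex5l*, against 3280 CPM in the other 34 WMI cells.

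The other higher genes differed in how their UMIs were spread over cells and classes. *Gm32647* went from 33 to 351 UMIs (46.5 to 595.1 CPM, log2 ratio 3.68), of which 214 lay in 1 WMI cell and 14 of 40 WMI cells held none. *Zbtb20*, a transcription factor of the hippocampus and of astrocytes, went from 98.6 to 332.3 CPM (log2 ratio 1.75), and 119 of its 196 WMI UMIs lay in the 6 cells rich in *Lsamp*. Without them it stood at 157.5 CPM, below 2-fold, but no control cell was left out. Of the 70 control UMIs, 30 lay in 1 cell. With equal weight of each member the log2 ratio was 2.195, and without the top cell it was 1.29. Microglia-like barcodes held 633.8 and 1016 CPM of *Zbtb20*. *Nkain3*, a membrane protein that binds the sodium pump, stood at 201.4 and 549.3 CPM, and *Npas3*, a basic helix-loop-helix factor, at 115.5 and 305.2 CPM. Their ratios pointed the same way in all 3 other classes. Of the WMI *Nkain3* UMIs, 141 of 324 lay in the 6 cells. Without them *Nkain3* stood at 374.4 CPM, below 2-fold, again with no control cell left out. Its log2 ratio was 1.31 with equal weight of each member and 1.17 without the top cell. With at least 2 *Fezf2* and 3 *Bcl11b* UMIs it was 0.24. *Npas3* stood at 342 and 675.2 CPM in microglia-like barcodes, above the members. *Grik1*, a kainate receptor subunit, went from 64 to 139 UMIs, and 89 of the latter lay in 1 cell.

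The 5 lower genes were *Zbtb16*, *Ahi1*, *Pdzrn3*, *Nxph1* and *Erbb4*. *Zbtb16* (chr9:48654297-48836222, minus strand), which encodes the zinc-finger factor PLZF, stood at 246.4 CPM in control members (175 UMIs) and 81.4 in WMI members (48 UMIs). Its log2 ratio was -1.60 (-2.09 to -1.13). It was found in 38 of 42 control cells (range 0 to 756.5 CPM, median 240.8) and in 25 of 40 WMI cells (0 to 407.9, median 56.2), and 37 control cells exceeded the WMI median although the ranges overlapped. In microglia-like barcodes *Zbtb16* stood at 95.7 CPM in control and 50 CPM in WMI. The WMI members lay closer to the level of these shallower barcodes than the control members did. In the corticothalamic-like class the ratio was -0.04, and in the near-projecting-like and *Cux2* upper-layer-like classes -0.67 and -0.63. The control members held more *Zbtb16* than corticothalamic-like cells (119.8 CPM), and the WMI members less than theirs (116.5 CPM). *Ahi1* (chr10:20952547-21080429, plus strand), a gene of the primary cilium, went from 888.6 to 423.8 CPM, a log2 ratio of -1.07 (-1.29 to -0.85). It was found in 42 of 42 and 39 of 40 members, and its ratio was -0.69, -0.63 and -0.69 in the 3 other classes. *Pdzrn3*, *Nxph1* and *Erbb4* had log2 ratios of -1.15, -1.24 and -1.07. Without the top cell of each gene these were -0.98, -0.87 and -0.37, short of 2-fold. With at least 2 *Fezf2* and 3 *Bcl11b* UMIs the direction turned for *Nxph1* (1.19) and *Erbb4* (0.10). Of 336 control *Erbb4* UMIs, 134 lay in 1 cell, which also held 39 of the 159 *Nxph1* UMIs. Both genes were higher in microglia-like barcodes than in the members, at 1233 and 1336 CPM for *Erbb4* and 429.8 and 501.9 CPM for *Nxph1*. The plot of log2 ratios by class places these genes beside the other neurons.

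**Figure D5:**
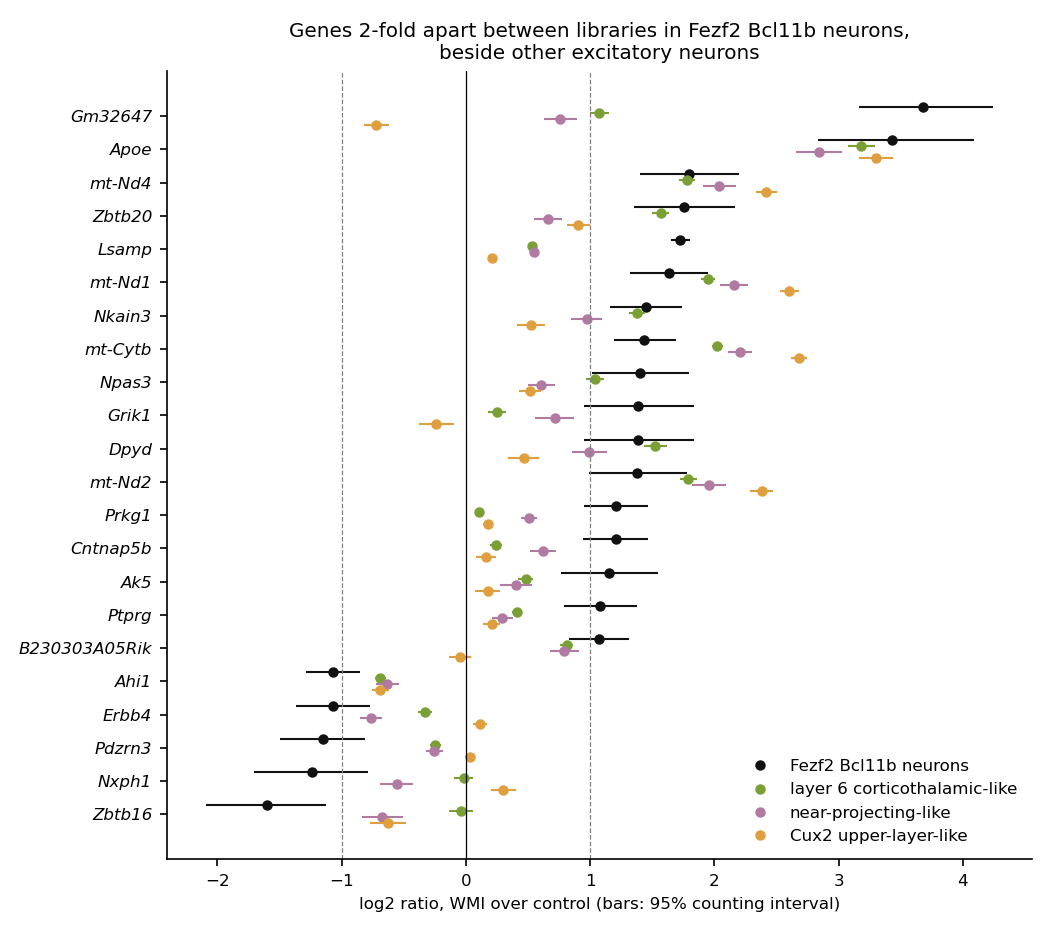
Log2 ratio of WMI to control of the genes at least 2-fold apart in the members, in the members and in 3 other excitatory classes, with 95% exact intervals that cover counting error only. *Apoe* lies between 2.84 and 3.43 in all 4 classes, while *Zbtb16* lies at -1.60 in members and -0.04 in corticothalamic-like barcodes. *Xist* is left out because its control count was 0.

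Lists tied to axons, channels and synapses held few genes that were 2-fold apart, as did all genes (1.8% higher and 0.501% lower), and most genes of the injury lists had too few UMIs to count. Of the 14 extratelencephalic genes outside the rule only *Ldb2* and *Vat1l* could be tested, with log2 ratios of 0.21 and -0.19. No gene was 2-fold apart among 6 tested corticospinal, 11 axon and cytoskeleton, 17 axon guidance, 13 potassium and related channel, 11 sodium and calcium channel, 6 GABA-A receptor and 9 synaptic vesicle genes. Of the synaptic vesicle genes, *Slc17a7* (120 and 130 UMIs) is required by the rule, so its level was set in part by the choice of members. The medians of all these lists lay between -0.19 and 0.10. Among 18 glutamate receptor genes only *Grik1* was higher. Of the immediate-early genes only *Homer1*, a postsynaptic scaffold gene, had enough UMIs, with a log2 ratio of 0.65. The 16 immediate-early genes summed to 330.9 CPM in control and 486.6 CPM in WMI (log2 ratio 0.56, 0.30 to 0.81). *Homer1* alone held 192.9 and 301.8 CPM of these sums, and *Fosb* had 0 UMIs in both libraries. No hypoxia-response gene reached 200 UMIs, and the list summed to 191.5 and 211.9 CPM (0.15, -0.22 to 0.51). The axon injury and cell stress list gave 37 and 69 UMIs, 52.1 and 117 CPM (1.17, 0.57 to 1.78). Its most abundant gene was *Hspa5* in control (23.9 CPM) and *Sox11* in WMI (50.9 CPM). Of its 15 measured genes, 11 had 0 UMIs in control and 7 in WMI. *Atf3* and *Sprr1a*, genes switched on by axon injury, had 0 UMIs in both libraries. The corticothalamic-like class gave 85.7 and 128.1 CPM for the same list.

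Endothelin signalling between neurons and oligodendrocyte precursors was the subject of the study, and the peptide genes were not found in these neurons. *Edn1*, *Edn2* and *Edn3*, which encode the 3 endothelin peptides, had 0 UMIs in the members of both libraries, allowing up to 4.23 CPM in control and 5.09 CPM in WMI. The receptor genes *Ednra* and *Ednrb* each had 5 UMIs in control and 4 in WMI members. *Ece1*, the endothelin-converting enzyme, gave 57 and 38 UMIs (80.3 and 64.4 CPM). Of 8 tested genes for signals from neurons to oligodendrocytes, 0 were higher or lower, with a median log2 ratio of 0.09. A difference in the peptide genes was not detectable in these cells at this depth.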

How the data were processed

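The authors deposited raw UMI counts for each barcode and gene. The submitters' notes name Cell Ranger 6.1.1 and mm9, and no normalization was applied. All 55450 gene identifiers, with their symbols, were found in GENCODE M21 (GRCm38), which gave the coordinates. Barcodes with at least 1000 UMIs, 500 genes and at most 10% mitochondrial UMIs were kept. No doublet caller was run, and no column was left unused. Counts were summed over cells per library and class and scaled to CPM (Python 3.11.15, numpy 2.4.6, pandas 2.3.3, scipy 1.17.1). Genes needed 200 UMIs over the groups compared. Shares have Clopper-Pearson, sums Poisson and ratios conditional binomial intervals, and the ratio code was tested on simulated data. TMM factors came from edgeR 4.0.16 in R 4.3.3. Comparison classes were set by counts: near-projecting-like barcodes held 3 or more *Tshz2* UMIs and *Vwc2l*. Genes were named from the rule, the 10 most extreme ratios each way, the 12 leading genes and at most 6 per list, and other list genes were named after their values were seen. The members, lists and tests were chosen with earlier results of these data known. Genes overlapping others (*Lsamp*, *Zbtb20*, *Ahi1*, *Pex5l*, *Gm32647*, and *Xist* with antisense *Tsix*) may share reads, since the counting strand is not given in the sources used here. A few genes that these rules name are not reported here.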

Additional observations from a re-analysis of the deposited data

Results flagged for a closer look

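In 4 genes the WMI to control ratio of the members pointed one way and that of the *Cux2* upper-layer-like barcodes the other, with both counting intervals on their own side of 0. With 1 library per group the difference was not tested. *Gm32647*, a lincRNA gene, had a log2 ratio of 3.68 in members and -0.72 (-0.82 to -0.62) in *Cux2* upper-layer-like barcodes. *Grik1* had 1.39 and -0.24 (-0.38 to -0.1). *Nxph1*, a ligand of neurexins, had -1.24 and 0.3 (0.2 to 0.4). *Erbb4*, the neuregulin receptor gene, had -1.07 and 0.11 (0.06 to 0.17). In *Gm32647*, *Grik1* and *Erbb4* 1 cell held 61%, 64% and 39.9% of the UMIs of the higher library. The opposition ended for *Grik1* without its top cell (-0.066 in members), and for *Nxph1* (1.19) and *Erbb4* (0.10) with members of at least 2 *Fezf2* and 3 *Bcl11b* UMIs.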

How the results depend on the processing

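No paired analysis was possible because each group has 1 library. Of 998 tested genes, 18 were at least 2-fold higher and 5 lower in WMI members. The numbers were 36 and 9 of 2037 with a minimum of 100 UMIs. With 500 UMIs they were 5 and 1 of 386, and with 10 they were 669 and 628 of 9730. They were 5 and 2 of 232 with at least 2 *Fezf2* and 3 *Bcl11b* UMIs (10 and 9 members). After thinning to 4000 UMIs they were 2 and 1 of 216. The higher genes were thus 2.155% and 0.926% of those tested, against 1.804% in the main setting. With only the 15 WMI members without *Xist*, 23 of 669 were higher and 14 lower. The next 2 alternatives were added after seeing the data. Without the cell holding the most UMIs of each gene, 13 of 998 were higher and 2 lower, *Zbtb16* and *Ahi1*. With members holding 3 or more extratelencephalic genes, 10 of 916 were higher and 5 lower. Genes higher than in corticothalamic-like barcodes (181 of 8110 in control, 124 of 7151 in WMI) were 321 and 244 with 100 UMIs. Under the stricter rule they were 414 and 365, and with 1000 UMIs, also added later, 45 and 31. The number of genes tested differed between these settings. Directions turned under the stricter rule for *Erbb4* (0.10), *Dpyd* (-0.22) and *Nxph1* (1.19), and without its top cell for *Grik1* (-0.066). The cause was not tested. Under TMM or median-of-ratios scaling the numbers were 20 and 5. Of all alternatives for counts and shares, 41 stayed within the limit set for a change and 19 moved past it. Leaving out members with any *Hs3st4* or *Tshz2* UMI (0 and 5 cells left) or with 3 or more non-neuronal UMIs (4 and 1 left) gave too few cells to count genes. In the latter the members were 0.0419% and 0.0123% of kept barcodes, and the difference turned to -0.0296 points (-0.0961 to 0.0345). With members holding 3 or more extratelencephalic genes the shares were 0.409% and 0.37%, a difference of -0.039 points, and -0.0146 points among excitatory barcodes.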
